A study of Mus musculus with 7 samples.

Results

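Complement genes were followed in 7 RNA sequencing libraries of mouse hindlimb tendon. The 9 genes were C1qa, C1qb and C1qc, which encode the chains of C1q, C1ra and C1s1, which encode the proteases C1r and C1s, C4b, C3 and Cfb, whose products build the C3 convertases, and Serping1, which encodes the C1 inhibitor. The 9 genes, like the lists used below, were chosen with earlier results of these data known. They were taken by gene symbol, without a cutoff on their values. They are 9 of the 44818 features (genes, and transcripts with no gene match) to which the estimated counts of the transcripts were summed. Each of the 9 passed the filter on low counts, which 16028 features passed.

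Complement is a cascade of secreted proteins that marks cells, debris and microbes for removal. In the classical pathway, C1q binds its target and activates C1r and C1s, and C1s cleaves C4 and C2 into the enzyme that splits C3. The alternative pathway amplifies this step with factor B, and the C1 inhibitor blocks C1r and C1s. The liver makes most of the circulating components, but C1q comes mainly from macrophages and related cells, and fibroblasts are a known local source of C1r, C1s, C3, C4 and the C1 inhibitor.

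The series asked about signalling by the kinase TAK1 and about heterotopic ossification, the growth of bone in soft tissue after injury. Mice of C57BL/6 background were burned on the back with an aluminium block at 60 °C for 18 s, over 30% of the body surface, and had the Achilles tendon of one leg cut at the same time. Tenotomy libraries (n = 2) came from tissue between the calf muscle and the heel on the cut side, 3 weeks after injury. Contralateral libraries (n = 3) came from the intact opposite leg of mice with the same burn and tenotomy, also after 3 weeks, so both groups carried the burn and the systemic response to it. Uninjured libraries (n = 2) came from tendon of wild-type mice with neither injury. The labels name no transgene and give neither age nor sex, and they tie no library to a mouse. Nothing states that the libraries of a group came from different animals, so the p-values measure the spread between these libraries, which may be technical.

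The libraries held between 25927171 and 36725106 estimated counts, of which 5 features (among them Gm42418 and Lars2) took between 76.4% and 81.4%. Between 4934057 and 8375626 counts per library remained for all other features. Tendon markers were present, with the 7 genes of that list, such as Tnmd, summing to between 172 and 370 CPM (counts scaled to a common library total) per library. The markers of skeletal muscle summed to between 1785 and 22779 CPM. The 2 uninjured libraries did not resemble each other. Over log2 CPM they lay 114.0 apart, whereas uninjured replicate 1 lay 59.6 and 61.1 from the tenotomy libraries and uninjured replicate 2 was 64.5 to 67.4 away from each contralateral library. Whether the labels of these libraries are right could not be settled from the files, which bears on every comparison with the uninjured group. Each such comparison is therefore given with both libraries and with either one left out. Total RNA of a whole tissue was measured, so fewer cells of a type and less RNA per cell cannot be told apart.

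Each of the 9 complement genes stood higher in both tenotomy libraries than in any contralateral library, and 8 of the 9 passed the test. The largest difference was that of C1qb, at 4.45-fold, and the C1q chains and the proteases C1ra and C1s1 were each between 3.00-fold and 4.45-fold higher. The differences of Cfb, at 2.64-fold, and Serping1, at 2.54-fold, were smaller, and that of C4b was 1.65-fold. C3, the central component, differed by 1.95-fold and missed the threshold. By the same test, edgeR's quasi-likelihood test fitted to the 7 libraries together with an adjusted p threshold of 0.05, 13.6% of the 16028 features were higher in tenotomy and 15.4% lower. Groups that did not overlap, with tenotomy higher, were found for 31.9% of features. The median log2 fold change was 1.58 over the 9 genes and -0.0012 over all features.

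**Figure D1:**
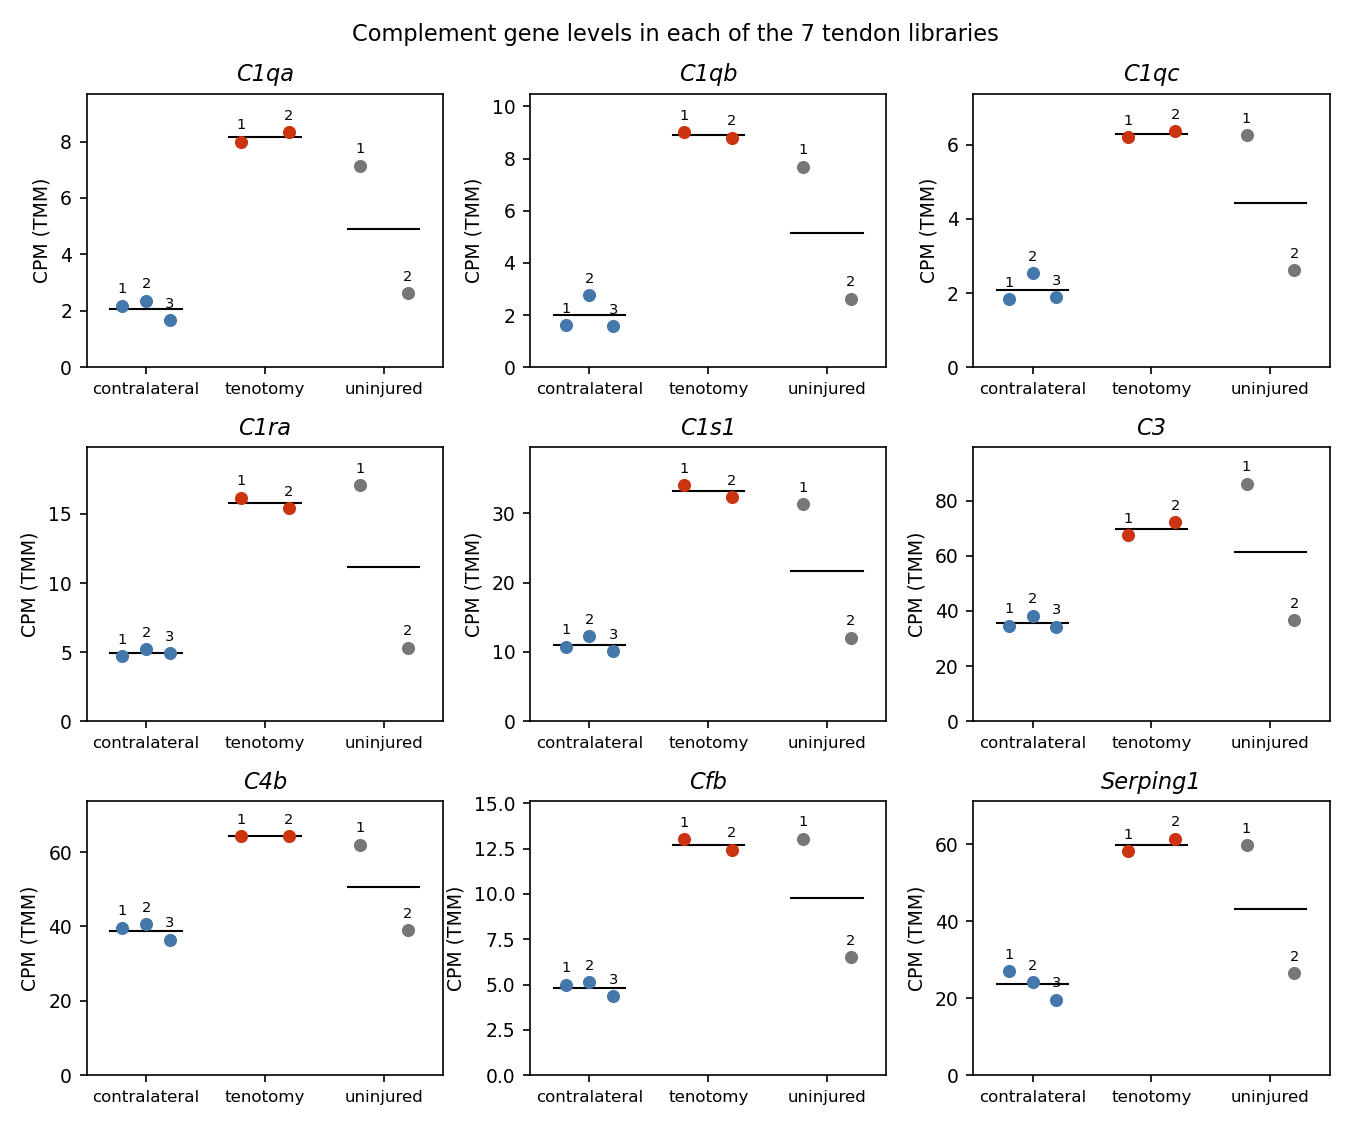
Level of each complement gene in CPM after TMM scaling (y axis, 1 panel per gene, starting at 0) in the contralateral, tenotomy and uninjured groups. Each point is 1 library, numbered by replicate, and the line is the group mean. In every panel both tenotomy libraries lie above the 3 contralateral libraries, uninjured replicate 1 lies near or above the tenotomy level and uninjured replicate 2 near the contralateral level.

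That count depended on which libraries shared the estimate of spread. In a fit of only the tenotomy and contralateral libraries, 9 of 9 genes were higher (adjusted p between 5.87e-08 and 5.28e-05 by edgeR), with 22.1% of features called higher. The same 9 were called when any 1 of these 5 libraries was also left out of that fit. In the fit of 7 libraries, leaving out any single contralateral or tenotomy library left 0 of 9 past the threshold (adjusted p between 0.0501 and 0.233), as 0% of all features were then called higher, while leaving out uninjured replicate 1 or 2 left 9 of 9, beside 21% and 21.2% of features called higher. The direction was higher in tenotomy for each gene under every one of these settings. With the series of the title number as a covariate, the tenotomy estimate rests on tenotomy replicate 1 alone. The log2 fold changes of the 9 genes were then between 0.73 and 2.16. No label calls these series a batch, and both contralateral and tenotomy libraries were present only in the first of them.

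The C1q genes lie next to each other on chromosome 4 (GRCm38, minus strand): C1qb at 4:136880129-136886187, C1qc at 4:136889804-136893065 and C1qa at 4:136895917-136898803. Their products assemble into 1 molecule, the recognition unit of the classical pathway. C1qa measured 2.17, 2.36 and 1.67 CPM in contralateral replicates 1 to 3, 7.996 and 8.33 CPM in the tenotomy libraries, and 7.15 and 2.62 CPM in uninjured replicates 1 and 2. C1qb measured 1.61, 2.76 and 1.58 CPM in contralateral, 9.002 and 8.80 CPM in tenotomy, and 7.69 and 2.62 CPM in uninjured libraries. C1qc measured 1.84, 2.53 and 1.89 CPM in contralateral, 6.20 and 6.37 CPM in tenotomy, and 6.25 and 2.62 CPM in uninjured libraries. For each chain, the tenotomy libraries lay within a narrow range far above the contralateral ones, and the uninjured libraries were split, one near each of the other groups. These were also the lowest counts among the 9 genes, from 43 counts of C1qb in contralateral replicate 1 to 331 counts of C1qb in tenotomy replicate 1.

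At the tenotomy site C1qa rose by 1.98 ± 0.37 on the log2 scale (± is the standard error here and below; edgeR adjusted p = 0.0167), C1qb by 2.15 ± 0.43 (adjusted p = 0.0167) and C1qc by 1.58 ± 0.33 (adjusted p = 0.0172). Here and below, rose and fell mean higher and lower than in contralateral tendon, and not a change over time. Macrophage markers differed along with the C1q genes. Of the 12 listed markers, 9 were higher in tenotomy and 0 lower, beside the 13.6% of all features called higher, with Lyz2 and Mrc1 giving the highest CPM, and Cd163 was at -0.23 (adjusted p = 0.370). The list summed to between 33.95 and 40.0 CPM in contralateral and between 128 and 131 CPM in tenotomy libraries, to 131 CPM in uninjured replicate 1 and to 40.2 CPM in uninjured replicate 2. Aif1 was at 0 counts in contralateral replicate 1, and the other 11 markers were detected in each library. The part of macrophage RNA in the C1q difference was not tested.

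Per transcript length the 3 chains were close to each other. The deposited TPM (transcript abundance scaled by length) of C1qb was between 0.698 and 1.10 of that of C1qa over the 7 libraries. C1qc lay below C1qa in each library, at between 0.638 and 0.947 of its TPM. The C1qc to C1qa ratio was 0.652 and 0.638 in the tenotomy libraries and 0.699, 0.891 and 0.947 in the contralateral libraries, with no overlap, and these rest on as few as 49 counts of C1qc.

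The protease genes C1ra and C1s1 are neighbours on chromosome 6 and are transcribed from opposite strands (C1ra at 6:124512405-124523443, plus strand, and C1s1 at 6:124530345-124542359, minus strand). C1r activates C1s, which then cleaves C4 and C2. C1ra measured 4.68, 5.21 and 4.92 CPM in contralateral, 16.2 and 15.4 CPM in tenotomy, and 17.1 and 5.30 CPM in uninjured libraries. C1s1 measured 10.7, 12.2 and 10.1 CPM in contralateral, 34.1 and 32.3 CPM in tenotomy, and 31.3 and 12.0 CPM in uninjured libraries. Both genes were thus about level within the contralateral group and within the tenotomy group, with a wide gap between the groups. C1ra rose by 1.68 ± 0.40 in log2 terms at the cut tendon (edgeR adjusted p = 0.0221) and C1s1 by 1.59 ± 0.35 (adjusted p = 0.0181).

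The C1s1 transcript was the more abundant per length in each library, at between 2.10 and 3.08 times the TPM of C1ra. The lowest ratio was that of uninjured replicate 1 and the highest that of uninjured replicate 2. The tenotomy ratios of 2.46 and 2.57 lay close to the contralateral ratios of 2.48, 2.76 and 2.58. The near-identical copies C1rb and C1s2 held at most 1 and 4 counts per library, and adding them to C1ra and C1s1 changed no call.

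C4b, C3 and Cfb all lie on chromosome 17 (C4b at 17:34728380-34743882, Cfb at 17:34856374-34862518 and C3 at 17:57203970-57228136, each on the minus strand). C4 and C3 are the thioester proteins that bind covalently to targets once cleaved, and factor B supplies the protease of the alternative convertase. C4b measured 39.7, 40.6 and 36.4 CPM in contralateral, 64.3 and 64.2 CPM in tenotomy, and 62.02 and 39.1 CPM in uninjured libraries. C3 measured 34.7, 38.3 and 34.2 CPM in contralateral, 67.5 and 72.1 CPM in tenotomy, and 86.1 and 36.6 CPM in uninjured libraries. Cfb measured 4.98, 5.12 and 4.36 CPM in contralateral, 13.0 and 12.4 CPM in tenotomy, and 13.04 and 6.50 CPM in uninjured libraries. C3 was the gene whose uninjured replicate 1 exceeded the tenotomy libraries by most, while uninjured replicate 2 lay within the contralateral range for both C3 and C4b.

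C4b rose by 0.72 ± 0.22 in log2 terms at the cut tendon (edgeR adjusted p = 0.0444) and Cfb by 1.40 ± 0.27 (adjusted p = 0.0167). C3 stood 0.97 ± 0.32 above contralateral, higher in 2 of 2 tenotomy libraries, with an adjusted p of 0.0589. C3 passed in the fit of only these 2 groups, in DESeq2 and with upper quartile scaling. With length-scaled TPM in place of the counts, the adjusted p of C4b was 0.134 and that of C3 was 0.0832. The closely related C4a held between 6 and 9 counts in each library, so its share of reads that could belong to C4b was small, and adding it changed no call.

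Within this group the balance of the genes was not fixed. The TPM of C3 was between 0.739 and 0.800 of that of C4b in the contralateral libraries, 0.918 and 1.08 in the tenotomy libraries, 1.26 in uninjured replicate 1 and 0.848 in uninjured replicate 2. Tenotomy and contralateral values did not overlap, and 1 uninjured library lay above the tenotomy pair and the other below it. The Cfb to C3 ratio was between 0.319 and 0.351 in contralateral and 0.422 and 0.402 in tenotomy libraries, with 0.333 and 0.427 in uninjured replicates 1 and 2.

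Serping1 (2:84765387-84775444, minus strand) encodes the inhibitor of the same C1r and C1s proteases. It measured 27.0, 24.2 and 19.5 CPM in contralateral, 58.2 and 61.4 CPM in tenotomy, and 59.6 and 26.4 CPM in uninjured libraries. Serping1 rose by 1.34 ± 0.33 in log2 terms at the cut tendon (edgeR adjusted p = 0.0225), so the gene of the inhibitor was higher alongside those of its targets. Per length, Serping1 stood at between 2.64 and 4.15 times the TPM of C1s1. The tenotomy ratios, 2.64 and 2.79, were the lowest of the 7, and the contralateral ratios were 4.15, 2.97 and 2.82.

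Levels can be compared between genes per length only. By deposited TPM Serping1 was the most abundant of the 9 in each group, at 2.41 ± 0.629 (SD, n = 3) in contralateral tendon, 5.88 ± 0.658 (SD, n = 2) at the cut tendon and 4.62 ± 2.79 (SD, n = 2) in uninjured mice. In contralateral tendon C4b followed at 1.41 ± 0.318, C3 at 1.08 ± 0.210 and C1s1 at 0.728 ± 0.135 (SD, n = 3). The other 5 genes lay between 0.278 for C1ra and 0.378 for C1qa, within each other's spread. At the tenotomy site C1s1 came second at 2.16 ± 0.160, and did not differ beyond the spread from C3 at 1.99 ± 0.294 or C4b at 1.99 ± 0.0675 (SD, n = 2). C1qb at 1.44 ± 0.0800 and C1qa at 1.40 ± 0.140 followed, again within their spread, and C1qc, C1ra and Cfb lay between 0.818 and 0.903. With CPM divided by length in place of TPM, 4 of 27 positions in the 3 orders changed.

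**Figure D2:**
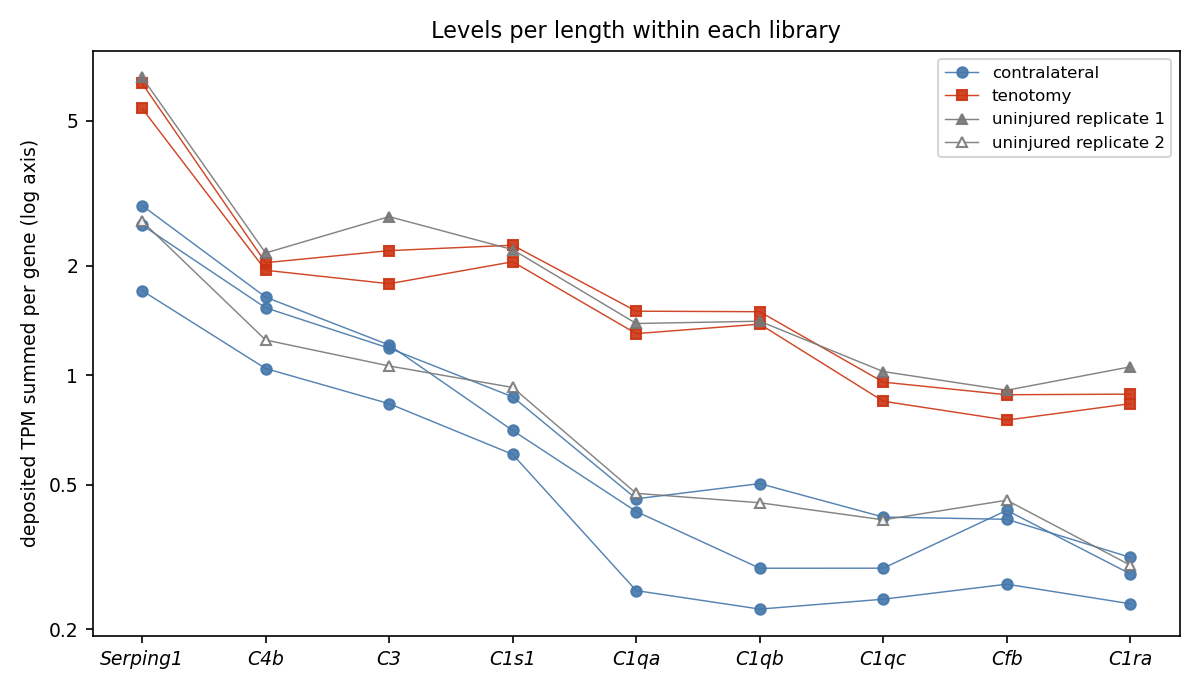
Deposited TPM summed per gene (y axis, log scale) for the 9 complement genes (x axis, ordered by contralateral level down to C1s1) in each of the 7 libraries, with 1 line per library. Serping1 is the highest in every library, and the lines of the tenotomy libraries and of uninjured replicate 1 run above the other 4 for each gene.

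Promoter sequences from RefSeq (GRCm38.p6) were read for the genes that the promoter table holds, C1qb, C1qc, C1ra, C1s1 and C3. The 250 bases before the start are printed for 1 gene of each step, recognition, protease and convertase, to show which letters these genes that differed together carry upstream. Sequences run 5′ to 3′ along the gene's strand. Capitals mark matches, searched on both strands, to GAGGAA, the core of the PU.1 motif, or to TTNNGNAA, a C/EBP motif. PU.1 is a transcription factor of macrophages, and C/EBP factors act in the acute phase and in inflammation.
C1qb, 4:136886201-136886450, minus strand: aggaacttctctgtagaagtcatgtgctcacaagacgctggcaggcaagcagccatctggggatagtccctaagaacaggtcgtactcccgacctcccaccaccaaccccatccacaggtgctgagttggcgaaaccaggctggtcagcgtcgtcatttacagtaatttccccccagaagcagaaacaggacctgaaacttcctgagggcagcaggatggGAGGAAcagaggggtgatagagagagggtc
C1s1, 6:124542360-124542609, minus strand: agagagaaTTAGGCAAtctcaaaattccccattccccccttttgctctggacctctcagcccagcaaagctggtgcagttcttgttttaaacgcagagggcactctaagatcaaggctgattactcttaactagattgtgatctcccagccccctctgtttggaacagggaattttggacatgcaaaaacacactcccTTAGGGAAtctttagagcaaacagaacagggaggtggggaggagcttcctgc
C3, 17:57228137-57228386, minus strand: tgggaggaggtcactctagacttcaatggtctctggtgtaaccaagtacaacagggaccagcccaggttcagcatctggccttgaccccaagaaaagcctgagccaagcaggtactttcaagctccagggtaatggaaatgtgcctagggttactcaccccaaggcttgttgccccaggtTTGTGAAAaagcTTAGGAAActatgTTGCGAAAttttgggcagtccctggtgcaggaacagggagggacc
The C1qb window held the PU.1 core at positions -30 to -25, counted back from the start, and no C/EBP match. C1s1 held 2 C/EBP matches, beginning at -242 and -52. The window of a second start listed for this gene held only the latter site, which begins at -90 when counted from that start. C3 held 3, beginning at -70, -58 and -45. Of 32536 promoter windows of the same length, 23.4% held the PU.1 core and 36.8% a C/EBP match, and 2.62% held at least 3 C/EBP matches. The C1qc window held the PU.1 core on the other strand and 1 C/EBP match, and that of C1ra held 2 C/EBP matches. By the gene coordinates above, these 2 windows reach into the genes. Both C1ra matches and the C/EBP match of C1qc lie inside the gene, and the PU.1 core of C1qc lies before it. The NF-kB motif GGNNTTTCC, the interferon motifs TTCNNNGAA and GAAANNGAA and the TATA box TATAAA were held by 4.93%, 7.04%, 7.15% and 12.3% of windows and had no match in the windows of these 5 genes. A match is one of letters in this window and not measured binding, and no match says only that these letters are not there.

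Genes of the factors and cytokines known to act on complement genes were compared next. Of 15 listed, 10 were tested, 5 were higher at the tenotomy site and 1 lower, with 4 not called. Over all features 13.6% were called higher and 15.4% lower, so 1 lower gene of 10 does not stand out from the background. Spi1, which encodes PU.1, rose by 1.76 ± 0.37 on the log2 scale (edgeR adjusted p = 0.0170), from 8, 16 and 13 counts in contralateral to 56 and 34 counts in tenotomy libraries. Irf8 rose by 1.86, Nfkb1 by 0.56, Stat3 by 0.53 and Rela by 0.51, each with an adjusted p between 0.0249 and 0.0476. Cebpb, the gene of C/EBP-beta, fell by 0.80 ± 0.18 (adjusted p = 0.0202), from a mean of 2.69 to 1.54 CPM. Uninjured replicates 1 and 2, at 1.40 and 1.82 CPM, were both near the tenotomy values of 1.71 and 1.37 CPM, so the contralateral group stood apart. DESeq2 called 2 of the 10 tested genes higher and 0 lower, and its share over all features is not given here. The cytokine genes were near or at 0: Ifng had 0 counts in every library, and Il6 had at most 3, Tnf at most 6 and Osm at most 7 counts. Il1b had 0 or 1 counts in the contralateral and 17 and 3 counts in the tenotomy libraries.

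Of 49 other complement genes listed by role, 30 passed the count filter. At the tenotomy site 12 of these 30 genes were higher and 3 lower, with 15 not called and a median log2 fold change of 0.60. Over all features 13.6% were called higher and 15.4% lower, so the 3 lower genes do not stand out from the background. The fit of only the groups compared called 15 higher and 6 lower, beside 22.1% of features called higher. The share of features called lower in that fit is not given here, so nothing is read from the 6 lower genes. DESeq2 called 10 and 2, and RLE scaling, upper quartile scaling and limma-voom each 12 and 2. Of the 11 receptor genes tested, 9 were higher and 1 lower.

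C3ar1, the receptor of the fragment C3a, rose by 2.08 ± 0.47 on the log2 scale (edgeR adjusted p = 0.0193), and C5ar1, the receptor of C5a, by 1.92 ± 0.45 (adjusted p = 0.0207). C3ar1 had 21, 42 and 38 counts in contralateral, 183 and 121 in tenotomy, and 147 and 43 in uninjured libraries. The integrin genes Itgam and Itgax, whose products pair with that of Itgb2 to bind C3 fragments, rose by 1.79 and 4.10, and Itgb2 by 2.18, although Itgax had only 3 to 6 counts per contralateral library. C5ar2, Lrp1, Calr and Cd93 rose by between 0.48 and 0.99, but DESeq2 did not call C5ar2 (adjusted p = 0.0638) or Cd93 (adjusted p = 0.0721). C1qbp, whose product binds C1q, fell by 0.78 ± 0.25 with an adjusted p of 0.0499, at the edge of the threshold, and was not called with RLE or upper quartile scaling, DESeq2 or limma-voom.

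Of the further recognition molecules, Colec12, a scavenger receptor with a collectin domain, rose by 1.45 ± 0.32 on the log2 scale (edgeR adjusted p = 0.0181). The mannose-binding lectin genes Mbl1 and Mbl2 and the ficolin gene Fcnb had 0 counts in every library. Among the proteases, C2, the partner of C4 in the classical convertase, was at 0.76 ± 0.28 with an adjusted p of 0.0759. Properdin (Cfp), which stabilises the alternative convertase, was at 0.95 (adjusted p = 0.0881).

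The gene of factor D, Cfd, the protease that cleaves factor B and a major product of adipocytes, went the other way from Cfb. Cfd measured 47.9, 77.4 and 73.6 CPM in contralateral, 25.6 and 25.2 CPM in tenotomy, and 26.7 and 64.8 CPM in uninjured libraries. It fell by 1.38 ± 0.39 in log2 terms at the cut tendon (edgeR adjusted p = 0.0359). Of 8 adipocyte markers, 3 were lower and 0 higher, beside 15.4% of all features called lower. The list summed to between 365 and 437 CPM in contralateral and between 128 and 131 CPM in tenotomy libraries. It summed to 129 CPM in uninjured replicate 1 and 466 CPM in uninjured replicate 2. Car3 alone gave between 231 and 271 CPM in contralateral, 62.6 and 65.2 CPM in tenotomy, and 66.9 and 285 CPM in uninjured libraries. The log2 fold changes of the 8 markers, tenotomy against contralateral, lay between -2.00, that of Car3, and -1.03. Each of the 8 was detected in every library, and the part of adipocyte RNA in the difference of Cfd was not tested.

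Of the terminal components only C7 passed the filter. C7 fell by 1.13 ± 0.19 on the log2 scale (edgeR adjusted p = 0.0167), from 28.9, 21.5 and 22.4 CPM in contralateral to 10.9 and 11.3 CPM in tenotomy libraries. In C7 the uninjured libraries did not split, at 12.97 and 11.05 CPM, whereas they did for the 9 genes above. The gene of C5, Hc, had 0 counts in the contralateral libraries and 5 and 7 counts in the tenotomy libraries. Other terminal genes were at or below 13 counts per library.

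Regulators other than Serping1 were mostly not called, with 2 of 10 higher and 0 lower. Over all features 13.6% were called higher and 15.4% lower, so counts this small say little of the regulators as a set. Cfi, which encodes the protease that degrades C3b and C4b, had 1, 3 and 0 counts in contralateral and 39 and 23 counts in tenotomy libraries (edgeR adjusted p = 0.0181). Csmd1 rose by 0.95 ± 0.25 (adjusted p = 0.0294). Of the membrane inhibitors, Cd59b had 4, 10 and 11 counts in contralateral and 20 and 17 counts in tenotomy libraries, and stood 1.07 ± 0.45 higher (adjusted p = 0.108). Cd55 at -0.12, Cd59a at -0.39 and Cd46 at -0.78, and clusterin (Clu) at -0.78, had adjusted p-values between 0.0743 and 0.680. In the fit of only the 2 groups, Cd59b was called higher (edgeR adjusted p = 0.0441) and Cd46, Cd59a and Clu lower. That fit called 22.1% of all features higher. Its share called lower is not given here, so the lower calls of Cd46, Cd59a and Clu are not set against a background.

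**Figure D3:**
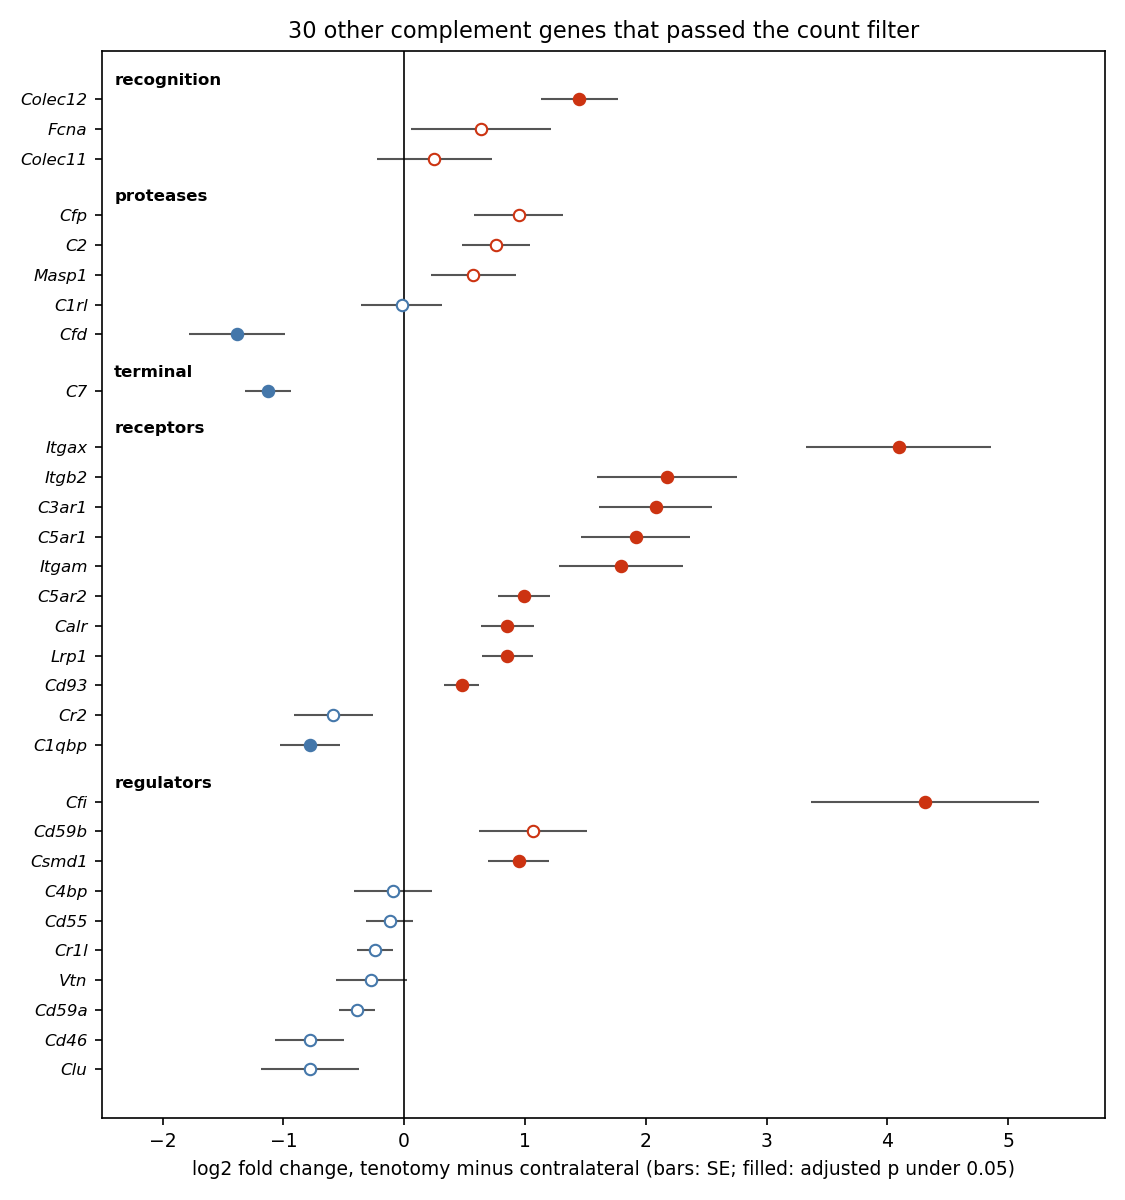
Log2 fold change, tenotomy minus contralateral (x axis), of the 30 further complement genes that passed the count filter, grouped by role (y axis), with bars of 1 standard error. Filled points passed an adjusted p of 0.05. Receptors lie mostly to the right of 0, Cfd and C7 lie to the left, and most regulators lie near or below 0. The value of Cfi rests on 0 to 3 counts per contralateral library.

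The markers of other cell types differed between tenotomy and contralateral tendon as well. Fibroblast markers were higher for 8 of 10 and lower for 0, beside 13.6% of all features called higher. Their sums were between 741 and 902 CPM in contralateral and 5007 and 5009 CPM in tenotomy libraries. The sums were 4561 CPM in uninjured replicate 1 and 2838 CPM in uninjured replicate 2. Most of each sum came from Col1a1 and Col3a1, so the sums say little of the other listed markers. In uninjured replicates 1 and 2 Col1a1 gave 2357 and 2214 CPM, whereas Lum gave 99.3 and 8.60 CPM. Dcn at 0.32 and Fbln1 at 0.41 on the log2 scale, tenotomy against contralateral, were not called. Skeletal muscle markers were lower for 10 of 10, beside 15.4% of all features called lower. Their sums were between 20622 and 22779 CPM in contralateral and 1785 and 1794 CPM in tenotomy libraries. The sums were 2268 CPM in uninjured replicate 1 and 15523 CPM in uninjured replicate 2. The sum of the 9 complement genes was between 115 and 133 CPM in contralateral, 276 and 281 CPM in tenotomy, 290.2 CPM in uninjured replicate 1 and 134 CPM in uninjured replicate 2. Complement, macrophage, adipocyte and muscle sums thus ordered the libraries in 2 sets, with uninjured replicate 1 beside the tenotomy libraries and uninjured replicate 2 nearer the contralateral ones. The part of these cell types in the differences of C1ra, C1s1, C3, C4b, Cfb and Serping1 was not tested.

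Tendon markers were higher for 3 of 7, endothelial markers lower for 1 of 6 and erythroid markers higher for 1 of 4 tested, each list with 0 in the opposite direction. Over all features 13.6% were higher and 15.4% lower, so the endothelial count lay near the background, and counts this small say little of these cell types. Of the 8 neutrophil markers 2 were tested and 0 called, and S100a8 had at most 7 and Ly6g at most 1 counts per library. The liver markers Apoa1, Ttr and Fgb had 0 counts in every library, and Alb had at most 16. Of the 2 tested hepatocyte genes, 1 was lower, the transferrin gene, which other cells also express.

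**Figure D4:**
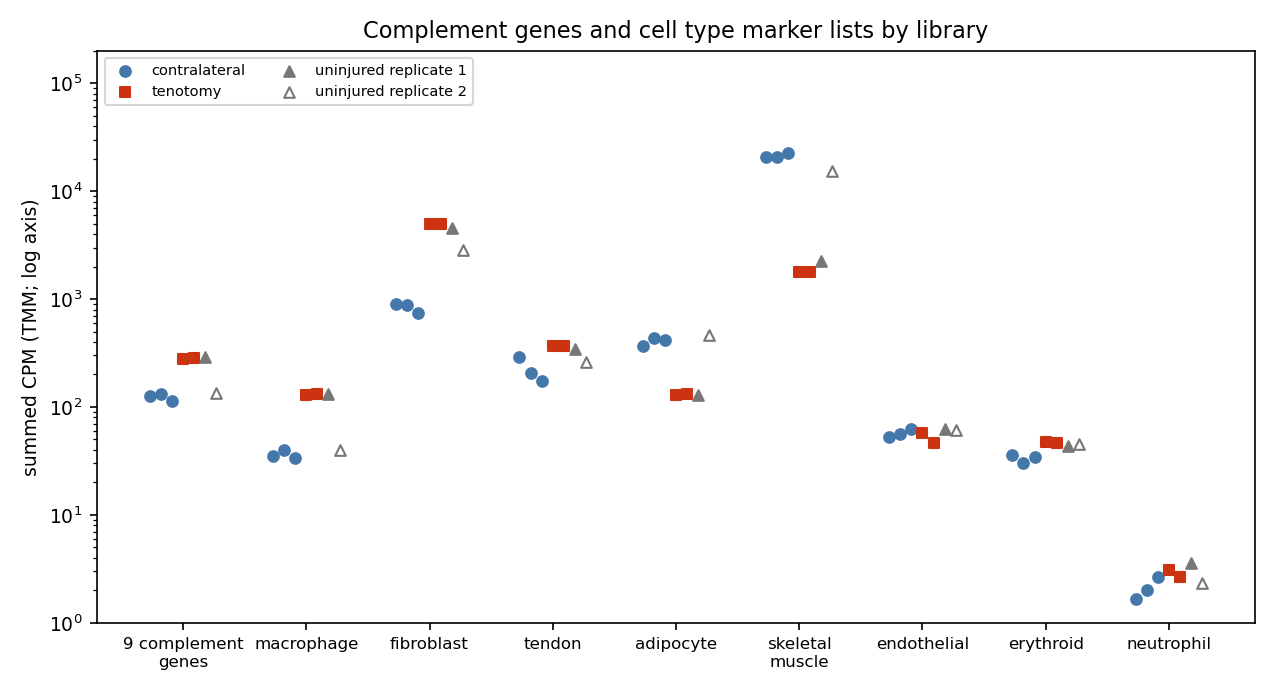
Summed CPM (y axis, log scale) of the 9 complement genes and of 8 cell type marker lists (x axis) in each library, with 1 point per library. The tenotomy libraries and uninjured replicate 1 lie above the contralateral libraries for the complement, macrophage and fibroblast lists and below them for the adipocyte and skeletal muscle lists.

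Against uninjured tendon, none of the complement genes differed past the threshold at the tenotomy site. With both uninjured libraries, the log2 fold changes ranged from 0.19 for C3 to 0.79 for C1qb with a median of 0.50 (edgeR adjusted p between 0.501 and 0.850). In this comparison 0% of the 16028 features were called by edgeR, 1741 features had an unadjusted p under 0.05, and DESeq2 called 140. The tenotomy libraries were both higher than both uninjured libraries for C1qa, C1qb, C1s1 and C4b, and the groups overlapped for the other 5 genes. Such a gap was found for 20.1% of features. The result rested on which uninjured library was used.

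Without uninjured replicate 1, 9 of 9 genes were higher at the tenotomy site, by between 0.72 for C4b and 1.77 for C1qb on the log2 scale (edgeR adjusted p between 1.22e-05 and 0.00185), beside 11.4% of features called higher. Without uninjured replicate 2, 0 of 9 were called, with values between -0.30 for C3 and 0.21 for C1qb, beside 0.0593% of features called higher. C1ra, C3 and Cfb then lay below 0. In each of these fits the lone uninjured library was assumed to vary like the other groups.

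Contralateral tendon was compared with uninjured tendon to ask about the intact limb of an injured mouse. With both uninjured libraries, 0 of 9 genes passed, and the values ranged from -1.36 for C1qb to -0.38 for C4b, with a median of -1.02 (edgeR adjusted p between 0.215 and 0.361). By edgeR 0% of features were called, 3084 had an unadjusted p under 0.05 and DESeq2 called 218. The contralateral libraries lay below both uninjured libraries for C1qa, C1qc, C1ra and Cfb, a gap that 16.6% of all features also had, and the groups overlapped for the other 5 genes.

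The 2 uninjured libraries again gave different answers. Without uninjured replicate 2, 9 of 9 genes were lower in contralateral tendon, by between -0.67 for C4b and -1.93 for C1qb (edgeR adjusted p between 9.51e-07 and 0.000959), beside 15% of features called lower. Without uninjured replicate 1, 0 of 9 were called, with values between -0.0068 for C4b and -0.43 for Cfb (adjusted p between 0.280 and 0.992), beside 0.311% of features called lower. With the title series as a covariate, 8 of 9 genes were lower, beside 7% of features. That estimate rests on uninjured replicate 1 and on the difference between the 2 tenotomy libraries. The spread within groups in that fit came only from the contralateral libraries, so these calls carry none from the uninjured side. The 3 comparisons share their libraries, so these values are not independent of each other.

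**Figure D5:**
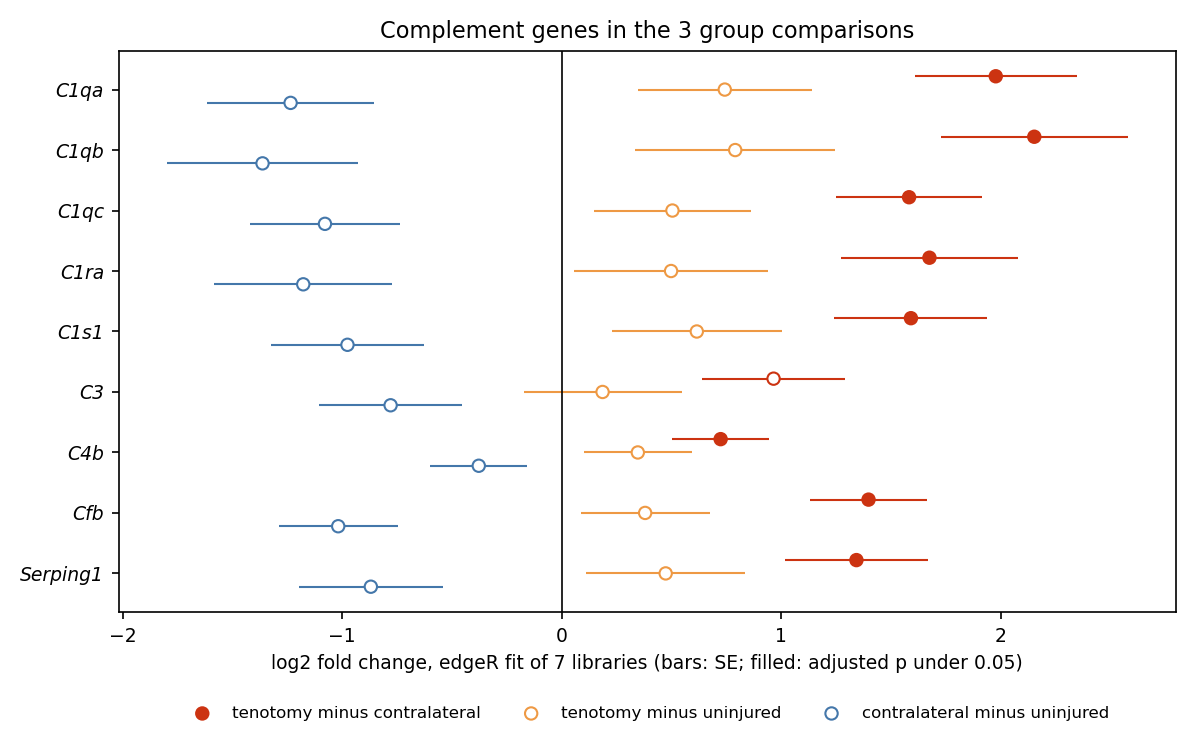
Log2 fold change (x axis) of each complement gene (y axis) in the 3 comparisons, from the edgeR fit of all 7 libraries, with bars of 1 standard error and filled points where the adjusted p was under 0.05. All 8 filled points belong to tenotomy minus contralateral. The open points against the uninjured group lie above 0 for tenotomy and below 0 for contralateral, as averages over uninjured libraries that differ.

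Single libraries placed against the contralateral mean show the split of the uninjured group gene by gene. On the log2 CPM scale uninjured replicate 1 stood 1.97 above it for C1qb, 1.78 for C1ra, 1.27 for C3 and 0.67 for C4b. Uninjured replicate 2 stood 0.44 above it for C1qb, 0.10 for C1ra, 0.04 for C3 and 0.01 for C4b. For the 9 genes uninjured replicate 1 lay above all contralateral libraries, as it did for 39% of features. Uninjured replicate 2 did so for 4 of the 9, C1qa, C1qc, C1ra and Cfb, and for 26.7% of features.

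The 9 genes followed a common pattern over the libraries, with a Pearson r of log2 CPM between 0.953 and 0.996 over 7 libraries for the 36 pairs. This is a description, since 7 libraries in 2 sets give a high r to many genes. Between 387 and 449 of the 2014 genes compared had an r of at least 0.9 with a given complement gene. Those most like C1qc were Gas7 and Csf1r, the gene of the macrophage growth factor receptor, at r = 0.999 and 0.998. Dnajc13 and Colec12 came closest to C1qa (0.998 and 0.997), and Akr1a1 and Gas7 to C1qb (0.997 and 0.995). For C1ra they were Lyz2, the lysozyme gene of myeloid cells, and Tmsb4x (0.998 and 0.997), and for C1s1 Actb and the collagen gene Col8a1 (both 0.999). C3 had the fewest genes at this level, led by Lcp1 and Rpl17 (0.996 and 0.992). C4b was followed most closely by Myof and Actb (both 0.998), Cfb by Ptma and Il6st (0.999 and 0.998), and Serping1 by Thbs2 and the TGF-beta receptor gene Tgfbr2 (both 0.998).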

How the data were processed

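Total RNA was extracted with Trizol, cleaned on a column and prepared with a TruSeq kit, per the labels' protocols. The submitters' processing notes name FastQC 0.11.4 and kallisto, and a human build, GRCh38, although the transcript IDs are those of mouse. The deposited tables give, per the file headers, length, effective length, estimated count and TPM of 103639 transcripts. Estimated counts, as deposited, are not normalized, and TPM, as the authors deposited them, are scaled by effective length. The 5 highest features take most of the depth, which limits the precision for genes with few counts.

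Transcript IDs were matched to GENCODE M21 (GRCm38), which 101510 did, and estimated counts were summed per gene and rounded. The 2129 unmatched transcripts were kept as features. Features were filtered with filterByExpr (minimum count 10) and scaled by TMM, and log2 CPM used a prior count of 2. Groups were compared with edgeR 4.0.16 (quasi-likelihood test, R 4.3.3) in 1 fit of 7 libraries with 3 group means, adjusted over all tested features by Benjamini-Hochberg. The standard error is the size of the log2 fold change divided by the square root of F. The script was tested on simulated counts. Alternatives were other scalings, DESeq2 1.42.0, limma-voom (limma 3.58.1), no filter, only the groups compared, the title series as a covariate, length-scaled TPM, paralogs summed, a threshold of 0.01 and each library left out. Replicates are numbered in accession order.

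The 9 genes are named whatever their values, other genes come from lists by role, and the genes of like pattern are the 2 with the highest r among genes with a mean log2 CPM of at least 3. From the lists 2 genes were left out and are not reported here. The genes and lists were chosen with earlier results of these data known.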

Additional observations from a re-analysis of the deposited data

How the results depend on the processing

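In tenotomy against contralateral tendon, each of the 9 complement genes was higher under every alternative run. Of 207 values of these genes under alternatives, 146 kept their side of the threshold, 49 lost it, 12 gained it and 0 turned. Leaving out each library in turn in the fit of 7 gave between 0 and 9 genes and between 0 and 7336 features past the threshold, against 8 genes and 4643 features. The fit of only the 2 groups called 7385 features. Leaving out a library from that fit as well, an alternative chosen after seeing the data, gave between 5245 and 7618 features and 9 genes each time. At an adjusted p of 0.01 there were 0 genes and 0 features, since the smallest adjusted p was 0.0143. The cause of these changes was not tested.

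In tenotomy against uninjured tendon, 144 of the 159 values with an adjusted p kept their side, 9 gained it and 6 turned. Those that turned were C1ra (-0.15), C3 (-0.26) and Cfb (-0.069) with the title series as a covariate, and C1ra (-0.11), C3 (-0.30) and Cfb (-0.033) without uninjured replicate 2. Without uninjured replicate 1, which gave the highest values, these were 1.58, 0.94 and 0.97. Features past the threshold numbered 140 with DESeq2, 15 with no filter and 4 with the title series, and between 0 and 4275, with between 0 and 9 of the complement genes, when a library was left out. DESeq2 gave no adjusted p for C1qa, C1qb and C1qc there. In contralateral against uninjured tendon, 145 of 162 values kept their side and 17 gained it. Features numbered 218 with DESeq2, 337 with no filter and 2466 with the title series (8 of the 9 genes), and between 0 and 5393, with between 0 and 9 of the genes, when a library was left out. Upper quartile scaling moved the median of all features by 0.11 in tenotomy against contralateral tendon, and C1rl and C4bp changed sign under it, C1rl also without the 5 highest features. No paired analysis was possible because the labels tie no library to a mouse. The C1q genes, with 43 to 97 counts per contralateral library, have the least depth.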

Other observations

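The estimated counts of Cfb were assigned to different transcripts of nearly the same length in different libraries. In 5 libraries between 66.0% and 96.3% of them lay on the transcript of 2737 bases. In contralateral replicate 3 and uninjured replicate 2 that transcript held 1.20% and 0.105%, and the transcript of 2751 bases held 79.2% and 92.8%. The sum of counts per gene, used above, does not depend on this assignment. The TPM summed per gene, also used above, can depend on it, since TPM is scaled by the effective length of each transcript. For C1s1, the transcript of 2946 bases held between 11.7% and 32.1% of the counts, and that of 2906 bases most of the others.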
